A study of Rattus norvegicus with 72 samples.

Results

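The data described here are 9 microarrays of rat dorsal root ganglia taken after a distal lesion of the sciatic nerve. They are the 3 arrays at 18 h (letters a to c), the 3 at 24 h and the 3 at 28 h, out of 72 arrays in the series, and the comparison sets the 6 late arrays against the 3 of 18 h. The L4 and L5 ganglia were taken, in which the neurons lie whose sensory axons run in this nerve. The rats were Wistar, aged 8 to 12 weeks, and the lesion was a crush; the labels name no transgene, drug or sex, and do not say whether ganglia of several rats were pooled. Sham-operated rats and rats with a proximal lesion, of the same strain and age range, were sampled at the same hours with 3 arrays each, and the lesions differ by their site on the nerve. A further 3 distal arrays at 18 h carry a letter followed by o (do, eo and fo). The labels do not say what the o means, and these arrays were left out of the main comparison. The labels do not state that arrays of 1 group are of different rats, and the p-values rest on the spread among them, which may be technical.

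A nerve crush cuts axons while the cell bodies survive. Signals carried back along the axon then switch on a transcription program in the ganglion. Its first factors include Atf3, Jun and Sox11, and among its later products are neuropeptides and proteins of the growing axon. Around each neuron lie satellite glia, which raise the filament protein Gfap after injury, and macrophages and other immune cells gather in the ganglion. In whole ganglia, more cells of a type and more RNA per cell cannot be told apart.

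All 9 arrays carried sensory neuron RNA. The markers Avil, an actin-binding protein of sensory neurons, and Prph, a neuronal filament, lay between 12.67 and 12.83 and between 13.34 and 13.44 on the log2 scale of the deposited values. Mog, a marker of spinal cord myelin, and S100a8 and Cd3d, markers of neutrophils and T cells, lay below the filter on dim genes, 5.46. S100a9, a further neutrophil marker, averaged 5.62 at 18 h and 5.84 late, above that level. Of the 4 spinal cord markers tested, 3 had group means above it at each hour. Of the 8 lymphocyte markers tested, 4 did at 18 h, 5 at 24 h and 4 at 28 h. Absence of these cells was thus not shown. The array medians ran from 6.99 to 7.04, and no 2 arrays held the same values.

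The 3 arrays of 18 h stood apart by skeletal muscle RNA. The mean of 30 muscle markers was 9.66, 9.78 and 9.70 in arrays a, b and c of 18 h. It was 6.96, 6.69 and 6.92 at 24 h, and 8.33, 6.88 and 8.04 at 28 h. The 18 h arrays do, eo and fo lay at 6.64, 6.64 and 6.88, and the 63 arrays outside the 9 had a median of 6.89 and a highest value of 9.77. Muscle markers were thus high in all 3 arrays of 18 h, intermediate in arrays a and c of 28 h, and low in the other 4 late arrays. Any gene that muscle expresses was therefore compared between arrays of unequal muscle RNA.

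**Figure D1:**
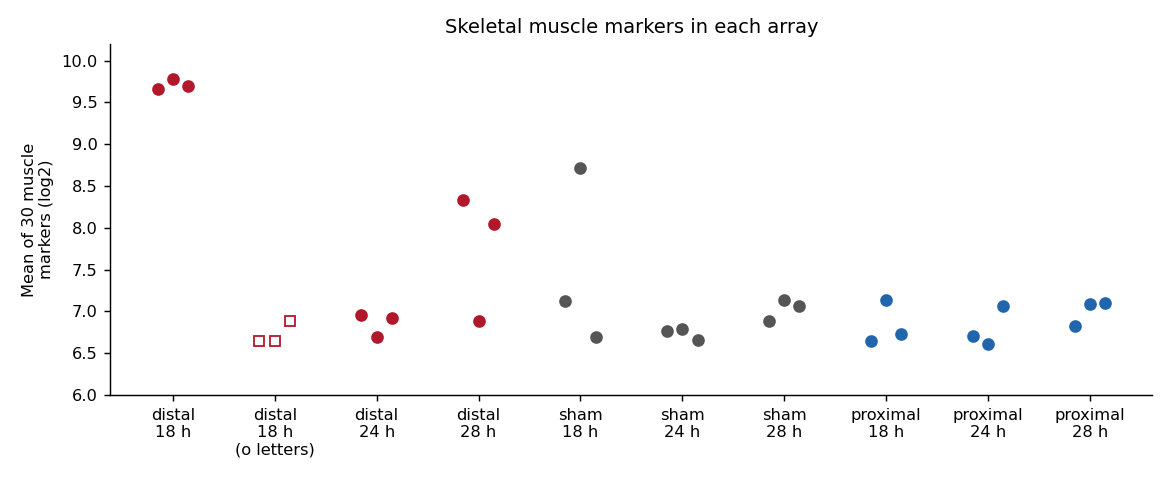
Mean of 30 skeletal muscle markers (log2 RMA level, vertical axis, which does not start at 0) in each array of the distal, sham and proximal groups at 18, 24 and 28 h. Each point is 1 array, and open squares are the distal arrays whose letter is followed by o. The 3 distal arrays of 18 h lie at 9.66 to 9.78, above every other array shown.

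Of 12276 genes tested, 190 (1.55%) differed between 24 and 28 h and 18 h at an adjusted p under 0.05 (limma, Benjamini-Hochberg). These genes are called here. Of them, 109 rose (0.888% of genes tested) and 81 fell (0.66%). At 2-fold or more there were 24 rises and 44 falls, and the median change of all genes was 0.00. The arrays of the groups did not overlap for 98 of the 109 rises and 76 of the 81 falls, while over all genes tested 943 (7.68%) had every late array above every array of 18 h and 804 (6.55%) every late array below. Every called gene changed in the same direction at 24 h and at 28 h. The call rests on the mean of these hours against the same 18 h arrays, so that agreement was largely fixed in advance. The falls were led by muscle genes. Each of the 20 largest followed the muscle marker mean over the 63 other arrays with r of 0.6 or more. So did 36 of the 81 falls in all and none of the 109 rises. These 36 were the only ones of the 12276 genes tested to reach that r. Its absence among the rises is therefore near the background and says little about them. The markers are themselves part of that mean, so their r is no separate evidence. Of the 36 falls, 13 were not among the markers. The count depended on which arrays set the spread. It was 1088 when the 9 arrays were fitted alone, with 183 of the 190 among them. Without array b of 18 h it was 98, and only 45 of the 109 rises and 52 of the 81 falls stayed called.

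**Figure D2:**
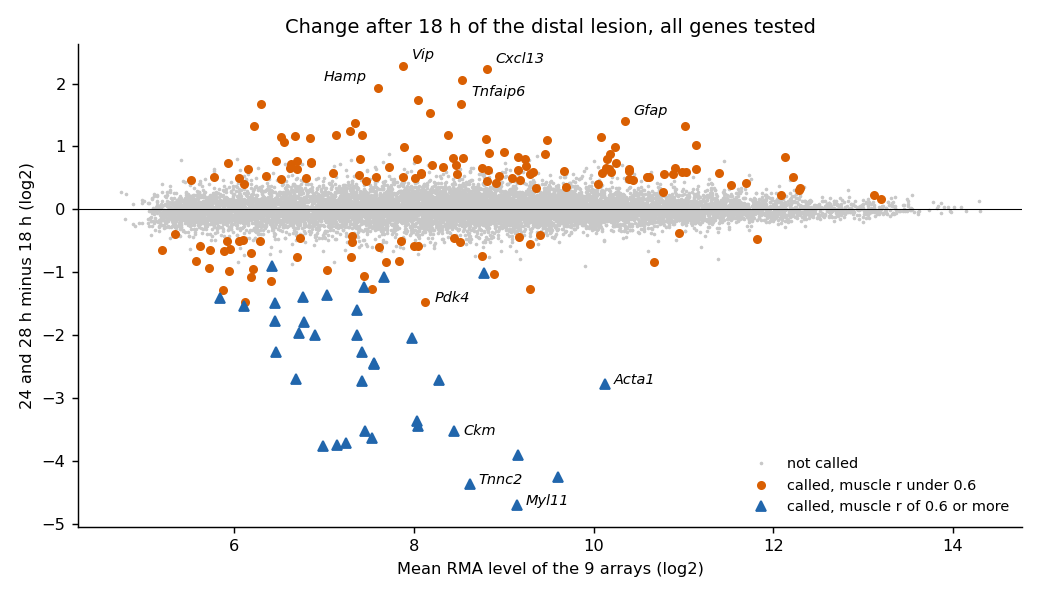
Log2 difference of 24 and 28 h minus 18 h (vertical axis) against the mean log2 RMA level of the 9 arrays (horizontal axis) for the 12276 genes tested. Orange circles and blue triangles are the 190 called genes, and triangles mark the 36 whose level followed the muscle markers over the other arrays with r of 0.6 or more; the rises reach 2.28 (Vip) and the falls -4.70 (Myl11).

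Among neuropeptides, Vip showed the largest rise of all genes called. Vip encodes vasoactive intestinal peptide, which adult sensory neurons make at low level until their axon is injured. Its level was 6.71, 6.25 and 6.12 at 18 h, 8.33, 8.14 and 8.60 at 24 h, and 8.88, 8.89 and 9.02 at 28 h. Every late array lay above every array of 18 h, by at least the gap from 6.71 to 8.14. The change was 2.28 ± 0.16 (log2 difference ± standard error; 4.86-fold; adjusted p 7.56e-15, limma). Vip had averaged between 4.64 and 5.70 from 1 to 16 h, so most of its rise came after 16 h.

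Another 3 neuropeptide genes rose. Npy, for neuropeptide Y, was at 8.28, 8.01 and 7.88 at 18 h, 8.83, 8.81 and 8.84 at 24 h, and 9.47, 9.55 and 9.54 at 28 h. Its groups did not overlap, and the change was 1.12 ± 0.16 (adjusted p 3.72e-06, limma). Gal, for galanin, was at 9.56, 9.85 and 9.41 at 18 h, 10.35, 10.21 and 10.41 at 24 h, and 10.77, 10.59 and 10.55 at 28 h, a rise of 0.87 ± 0.12 (adjusted p 3.71e-06, limma). Adcyap1, for the peptide PACAP, went from 11.57 ± 0.16 (SD, n = 3) at 18 h to 12.41 ± 0.11 (SD, n = 6), a rise of 0.84 with no overlap. In the 18 h arrays eo and fo, which carried little muscle RNA, the 4 peptides were also lower than late: with these in place of a to c, the changes were 3.05 for Vip, 1.02 for Npy, 1.19 for Gal and 1.26 for Adcyap1, and each passed the test. Array do was left out of that comparison because it grouped apart from the 9 arrays by the values of dim probe sets. The late arrays were the same as in the main comparison, so the changes against eo and fo are not independent of it.

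Secreted factors of inflammation were among the other large rises. Cxcl13 encodes a chemokine that attracts B cells. It was at 6.71, 7.86 and 7.40 at 18 h, 9.86, 9.21 and 9.66 at 24 h, and 9.33, 9.89 and 9.37 at 28 h. The groups did not overlap, although the 3 arrays of 18 h spread over more than the late arrays did, and the change was 2.23 ± 0.35 (4.70-fold; adjusted p 2.52e-05, limma). Against arrays eo and fo, which were at 8.45 and 8.03, the change was 1.31 (adjusted p 0.039, limma).

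Tnfaip6 encodes a hyaluronan-binding protein induced by inflammatory cytokines. It was at 7.37, 7.02 and 7.12 at 18 h, 8.97, 8.83 and 8.96 at 24 h, and 9.42, 9.51 and 9.65 at 28 h. The rise was 2.06 ± 0.25 (4.16-fold; adjusted p 1.54e-07, limma), without overlap. A second probe set of Tnfaip6, with a mean of 4.24, lay below the filter and differed by 0.12.

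Hamp encodes hepcidin, the peptide hormone that limits iron export from cells. It was at 6.28, 6.43 and 6.22 at 18 h, 8.18, 7.58 and 8.00 at 24 h, and 8.70, 8.52 and 8.49 at 28 h. It had stayed between 5.21 and 5.81 on average from 1 to 16 h, and its rise after 18 h was 1.93 ± 0.16 (3.81-fold; adjusted p 5.55e-13, limma). Tslp, an epithelial-type cytokine, was at 7.30, 7.46 and 7.43 at 18 h, 9.04, 8.77 and 8.88 at 24 h, and 9.37, 9.24 and 9.20 at 28 h. The rise of Tslp was 1.68 ± 0.29 (3.21-fold; adjusted p 0.000119, limma), and its groups did not overlap.

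Arg1, the enzyme arginase that splits arginine to ornithine and urea, was at 6.71, 7.11 and 6.84 at 18 h, 8.38, 8.25 and 8.59 at 24 h, and 8.85, 8.90 and 8.79 at 28 h. It rose by 1.74 ± 0.20 (3.35-fold; adjusted p 2.01e-08, limma). Arg1 is made by some macrophages as well as by injured neurons. None of 28 macrophage markers was called by limma, 8 of them had an unadjusted p under 0.05, 10 were called when the 9 arrays were fitted alone, and their median change was 0.16. Their summed level, as the mean of the list, was 7.67 to 7.75 at 18 h, 7.88 to 8.07 at 24 h and 7.89 to 7.96 at 28 h, so it was higher in every late array than in arrays a to c of 18 h. In arrays do, eo and fo it was 7.50 to 8.03, which overlaps the late arrays; its part in the rises of secreted factors was not tested. The defining marker Cd68 averaged 7.11 at 18 h and 7.24 late.

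Not all chemokines rose. Ccl7, which attracts monocytes, was at 7.81, 8.42 and 8.22 at 18 h, 7.47, 6.99 and 7.30 at 24 h, and 7.10, 6.71 and 6.97 at 28 h. It fell by 1.06 (SE 0.23; adjusted p 0.00355, limma) without overlap, and against arrays eo and fo, at 8.25 and 8.08, the change was -1.07. Ccl2, its close relative, differed by -0.79 with every late array below every array of 18 h, and did not pass the test (adjusted p 0.0764, limma). Without array b of 18 h the change of Ccl7 was -0.93 and was not called. Of the 29 chemokine, cytokine and NF-kappaB target genes listed, Cxcl13 and Tnfaip6 rose, Ccl7 fell and 26 were not called.

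**Figure D3:**
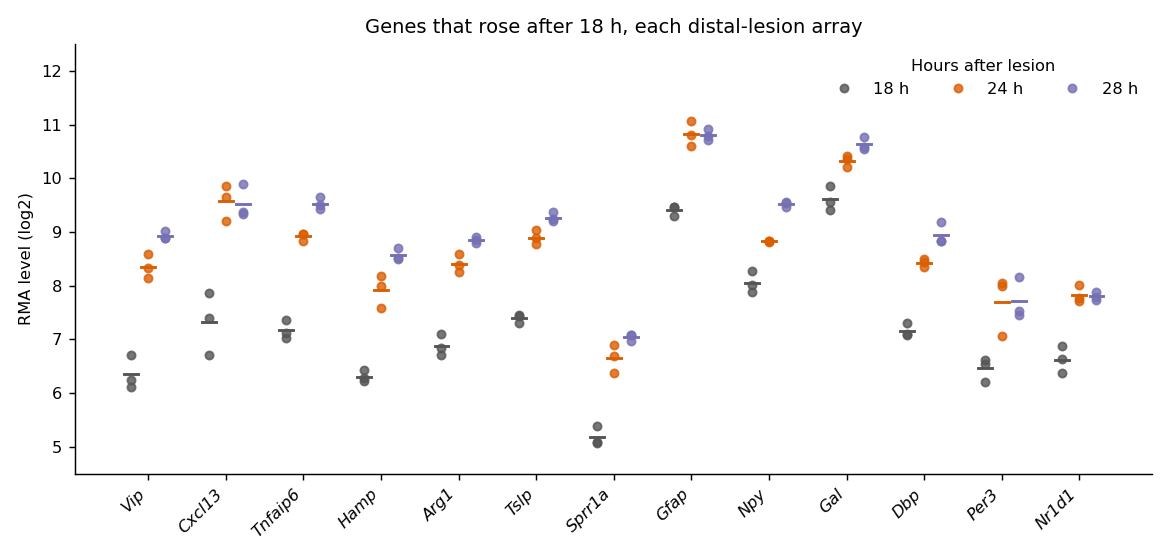
RMA level (log2, vertical axis, which does not start at 0) of 13 genes called higher, in each of the 3 distal-lesion arrays at 18 h (grey), 24 h (orange) and 28 h (purple); short bars are group means. For each gene shown, all 6 late arrays lie above all 3 arrays of 18 h, with Vip going from 6.12 to 6.71 at 18 h to 8.88 to 9.02 at 28 h.

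Injury-induced and regeneration-associated genes formed the list with the most rises. Of its 53 members tested, 15 rose (0.888% of all genes tested rose), none fell and 38 were not called, and the median change was 0.33 beside 0.00 for all genes. The members were chosen with earlier results of these data known, so these shares are not an independent test. In 25 of the 53, every late array lay above every array of 18 h (7.68% over all genes tested). The count was 9 without array b of 18 h, 10 without arrays a and c of 28 h, 7 with the muscle marker mean as a covariate and 19 against arrays eo and fo. The 15 were Sprr1a, Gal, Npy, Vip, Adcyap1, Csrp3, Stmn4, Ecel1, Tubb6, Tslp, Sdc1, Plau, Arg1, Sema6a and Mmp16.

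Sprr1a, a small proline-rich protein of the cornified envelope that injured neurons carry into growing axons, was at 5.38, 5.10 and 5.07 at 18 h, below the filter level. It was at 6.69, 6.38 and 6.90 at 24 h and at 7.08, 6.97 and 7.08 at 28 h. Since its level at 18 h was that of dim probe sets, the rise is given as at least 2.61-fold (log2 difference 1.67 ± 0.25, adjusted p 1.29e-05, limma). From 1 to 16 h its mean had stayed between 5.09 and 5.39. A further 2 genes of the cornified envelope rose: Lce1f rose by at least 2.29-fold from 5.34 ± 0.28 (SD, n = 3) to 6.66 ± 0.34 (SD, n = 6), and Tgm1, the transglutaminase that cross-links the envelope, rose by 1.16 ± 0.15 (adjusted p 2.61e-07, limma).

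Csrp3, a LIM protein of muscle that is also induced in injured sensory neurons, rose by 1.19 ± 0.26 (adjusted p 0.00355, limma) while the muscle markers fell. It was at 6.97, 8.41 and 7.38 at 18 h, 8.63, 8.07 and 8.49 at 24 h, and 9.39, 9.10 and 8.98 at 28 h. Array b of 18 h overlapped the arrays of 24 h. Without array a of 18 h the change was 0.88 and without array c 1.09, and neither was called. The arrays eo and fo held 5.79 and 5.93, and against them the change of Csrp3 was 2.92. Without arrays a and c of 28 h, the 2 late arrays with the most muscle RNA, its change was 0.99 and did not pass the test (adjusted p 0.0703, limma).

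The other members of the list that rose differ in kind. Tubb6, a beta tubulin, rose by 0.88 from 8.87 ± 0.06 (SD, n = 3) to 9.75 ± 0.23 (SD, n = 6), while its second probe set differed by 0.15. Mmp16, a membrane-bound metalloproteinase, rose by 0.99, the semaphorin Sema6a by 0.92, the urokinase Plau by 0.80 and the stathmin Stmn4 by 0.65. Sdc1, a heparan sulphate proteoglycan, rose by 0.52. The peptidase Ecel1 lay at 5.22 at 18 h, below the filter level of 5.46, and its rise is given as at least 1.16-fold. Without array b of 18 h, none of Mmp16 (0.70), Sema6a (0.83), Plau (0.79), Stmn4 (0.56), Sdc1 (0.38) and Ecel1 (0.30) was called; Plau and Stmn4 were also lost without array a or c of 18 h, Stmn4 without array a or c of 24 h or of 28 h, and Ecel1 without array c of 18 h, any array of 24 h or array b or c of 28 h. Ecel1 was not called in the fit of the 9 arrays alone (adjusted p 0.0632, limma) nor against eo and fo, where it differed by 0.39. In 36 tubulin, microtubule and growth cone genes, Tubb6, Stmn4 and Actn1 rose and 33 were not called, with a median of 0.02; Actn1 was not called without array b of 18 h or c of 28 h, nor against eo and fo.

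Short stretches of promoter are shown for Sprr1a, Vip and Gal. The search covered the RefSeq window from 250 bases before to 50 bases after the gene start (build GRCr8) on both strands, for the AP-1 element TGACTCA or TGAGTCA, the full cyclic AMP response element (CRE) TGACGTCA and its shorter core TGACG, which any full element also contains. Of the 15 genes of the list that rose, 11 had such a window. The AP-1 element was in 1 (9.09%), Sprr1a, which holds 2 copies, against 3.59% of 10155 windows of genes tested. The full CRE was in none of the 11, against 3.14%. The CRE core was in 3 (27.3%), Gal, Plau and Vip, against 31% of all windows, so its share was near the background. The sequences run 5′ to 3′ on the gene's strand with the element in capitals.
Sprr1a, chr2:180752696-180752812, minus strand: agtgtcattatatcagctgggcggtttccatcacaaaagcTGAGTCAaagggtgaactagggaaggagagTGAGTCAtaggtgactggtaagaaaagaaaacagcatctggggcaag
Vip, chr1:44470343-44470427, plus strand: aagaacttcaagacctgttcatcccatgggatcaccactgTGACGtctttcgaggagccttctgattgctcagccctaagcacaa
Gal, chr1:210084591-210084675, minus strand: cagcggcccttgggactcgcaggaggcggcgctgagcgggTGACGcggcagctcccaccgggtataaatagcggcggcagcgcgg

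The first elements lie 147 and 117 bases before the gene start in Sprr1a, 97 in Vip and 63 in Gal, counted at the first base of each. They are matches of letters, and no binding was measured.

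The factors that start the injury program did not pass the test. Atf3, a transcription factor that marks axotomised neurons, was at 11.95, 11.88 and 11.82 at 18 h, 12.40, 12.16 and 12.41 at 24 h, and 12.38, 12.41 and 12.29 at 28 h. The groups did not overlap, but the spread of Atf3 over all groups was wide, and the difference of 0.46 ± 0.44 was not called (adjusted p 0.909, limma). Fitted on the 9 arrays alone, the same difference passed the test, as it did for Gadd45a, Il6, Fos and Reg3b. Most of the rise of Atf3 lay earlier, from a mean of 7.96 at 8 h to 11.88 at 16 h.

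Gadd45a, a growth arrest gene, was at 12.12 ± 0.09 (SD, n = 3) at 18 h and 12.46 ± 0.06 (SD, n = 6) late, and the difference of 0.35 was not called. Il6, the cytokine interleukin 6, was at 8.24, 8.73 and 8.52 at 18 h against 8.68 to 9.33 late, a difference of 0.51 with overlap. Reg3b, a secreted lectin, differed by 0.33, Jun by 0.18, Sox11 by -0.09, Socs3 by 0.12, Stat3 by 0.22 and Gap43, a growth cone protein, by 0.10, and none of these was called. Sox11 and Jun overlapped between the groups. In the arrays without o, the mean of Il6 went from 4.23 at 12 h to 8.18 at 16 h. That of Sprr1a was 5.13 at 12 h, 5.39 at 16 h and 5.18 at 18 h. In the arrays do, eo and fo, Il6 was at 6.09, 7.32 and 7.43, and against eo and fo its change was 1.63 and passed the test (adjusted p 0.0011, limma). Against all 3 arrays with o, Gadd45a (1.04), Reg3b (1.19) and Gap43 (0.31) were also called, while Atf3, Jun, Sox11, Socs3 and Stat3 were not. Against eo and fo alone, none of these genes besides Il6 was called. For Il6, Gadd45a, Reg3b and Gap43 the call thus depended on the 18 h arrays used. For Gadd45a, Reg3b and Gap43 it needed array do, which grouped apart by the values of dim probe sets. Atf3, Jun, Sox11, Socs3 and Stat3 were called with none of these choices of 18 h arrays.

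**Figure D4:**
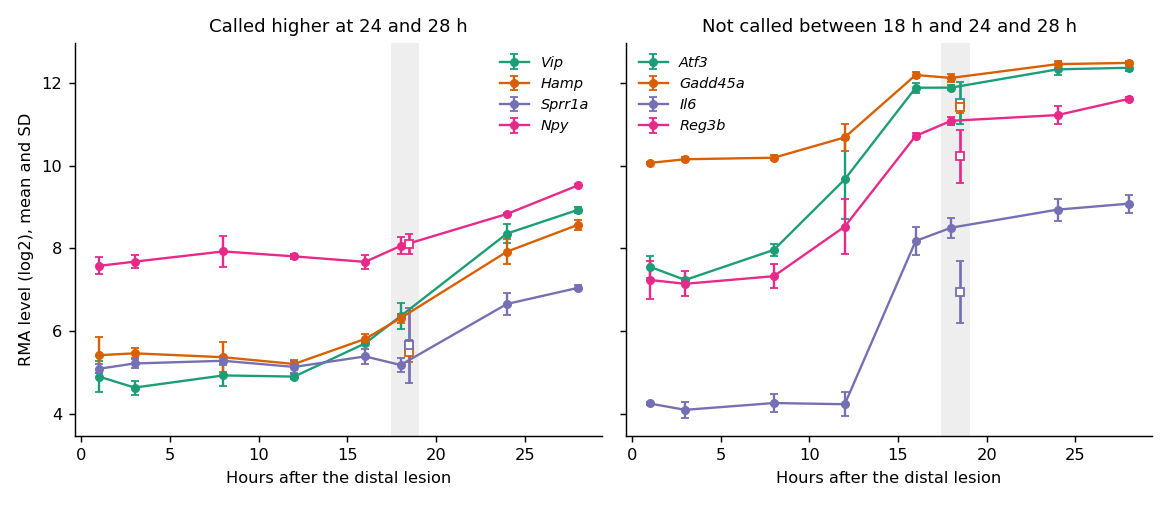
RMA level (log2, vertical axis, not from 0) against hours after the distal lesion for 4 genes called higher at 24 and 28 h (left) and 4 not called (right). Filled points are group means with SD over the arrays of a group without o, and open squares inside the grey band are the 18 h arrays do, eo and fo; Vip, Hamp and Sprr1a climb after 18 h, whereas Atf3, Gadd45a, Il6 and Reg3b climb between 12 and 16 h.

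Of 28 immediate-early genes, Klf10, a Krüppel-like factor, rose by 0.69 and 27 were not called, beside 1.55% called over all genes, so the count was near the background; Fos differed by 0.65 (adjusted p 0.749, limma). Against arrays eo and fo the difference of Klf10 was -0.060, and it was not called without array a or b of 18 h or c of 24 h. Of 42 channels, receptors and peptides of nociceptors, Adra2c, an alpha-2 adrenergic receptor, fell by 0.75 and 41 were not called, a count near the background too; without array c of 18 h Adra2c was not called. Trpv1, the capsaicin receptor, differed by 0.16 and Scn10a, a sodium channel of nociceptors, by 0.08.

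Of the markers of satellite glia, Gfap rose. It was at 9.47, 9.29 and 9.46 at 18 h, 11.07, 10.61 and 10.80 at 24 h, and 10.71, 10.91 and 10.78 at 28 h, a change of 1.41 ± 0.20 (2.65-fold; adjusted p 5.27e-06, limma) without overlap and with equal means at 24 and 28 h within their spread. Entpd2, an enzyme on the glial surface that breaks down ATP, rose by 0.64, or by 0.60 and uncalled without array b of 18 h. The other 10 of 12 markers were not called, and Fabp7, the defining one, went from 11.59 at 18 h to 10.99 late (adjusted p 0.465, limma). The median of the list was 0.23.

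Several of the 20 largest rises were outside the lists. Ptprh, a receptor tyrosine phosphatase, had a narrow spread: it was at 6.38, 6.38 and 6.53 at 18 h, 7.82, 7.64 and 7.74 at 24 h, and 7.81, 7.92 and 7.92 at 28 h, a rise of 1.38 ± 0.10 (2.60-fold; adjusted p 1.42e-14, limma). Slc7a6os rose by 1.15 and Sdcbp2, a syntenin, by 1.15, both without overlap. Cep152, a centrosome protein, rose by 1.13, but arrays eo and fo held 6.97 and 6.62 and against them the change was 0.42 (adjusted p 0.21, limma). Abca1, the cholesterol exporter, was at 9.36, 10.44 and 10.61 at 18 h and between 11.29 and 11.72 late, a rise of 1.32. Without array a of 18 h the change was 0.94 and was not called, and against arrays eo and fo, at 10.97 and 10.91, it was 0.53 (adjusted p 0.48, limma).

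Of the circadian clock genes, 3 rose and 1 fell. Dbp, an output factor of the circadian clock, was at 7.08, 7.31 and 7.10 at 18 h, 8.49, 8.35 and 8.44 at 24 h, and 8.83, 9.18 and 8.84 at 28 h. It rose by 1.53 ± 0.29 (2.88-fold; adjusted p 0.000597, limma) without overlap. Per3, a period protein, was at 6.21, 6.55 and 6.62 at 18 h, 7.99, 8.05 and 7.06 at 24 h, and 7.46, 8.17 and 7.53 at 28 h, a rise of 1.25 ± 0.21 (adjusted p 6.47e-05, limma). A second, dim probe set of Per3 (mean 5.31) differed by -0.08.

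Nr1d1, the repressor Rev-erb alpha, rose by 1.19 ± 0.26 from 6.63 ± 0.26 (SD, n = 3) to 7.81 ± 0.11 (SD, n = 6); without array a of 18 h the change was 1.06 and was not called. Npas2, a partner of Bmal1 in activation, was at 6.06, 5.72 and 6.24 at 18 h, 5.83, 5.57 and 5.76 at 24 h, and 5.12, 4.96 and 5.34 at 28 h; its late mean of 5.43 lay below the filter level, so the fall is given as at least 1.46-fold (adjusted p 0.0244, limma), with overlap at 24 h. It was not called without array a (-0.55) or c (-0.46) of 18 h, without array b of 24 h (-0.54) or without array b of 28 h (-0.53). Of 16 clock genes, these 3 rose, Npas2 fell and 12 were not called, with a median of 0.24. Tef, Hlf and Bhlhe40 had every late array above every array of 18 h and differed by 0.47, 0.45 and 1.14 without passing the test, and Bmal1 differed by -0.38. The 4 called clock genes all had a RefSeq promoter window, and the E-box CACGTG was in none of them, against 9.27% of windows of all genes tested; this search was added after the values were seen. Hour after lesion and hour of day were not given separately, and their parts in these changes were not tested.

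In sham arrays Dbp changed by 0.36 and Nr1d1 by 0.56 over the same hours, and Per3 by -0.02. After the proximal lesion Dbp changed by 0.73, Nr1d1 by 0.87 and Per3 by 0.07. The difference from the distal change passed the test for Per3 against both, at 1.27 from sham (adjusted p 0.0221, limma) and at 1.18 from proximal (adjusted p 0.023, limma). With technical sets (arrays grouped by the values of dim probe sets) as a random block, neither call remained, and Per3 in sham and proximal arrays lay near the filter level of 5.46.

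**Figure D5:**
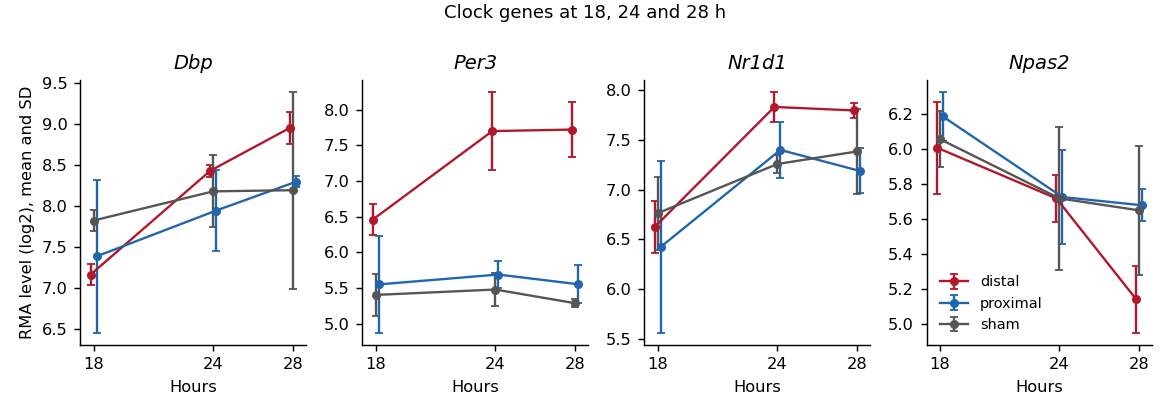
RMA level (log2, vertical axes that differ by panel and do not start at 0) of 4 clock genes at 18, 24 and 28 h after the distal lesion (red), the proximal lesion (blue) and sham surgery (grey). Points are means and bars SD over 3 arrays; Per3 goes from 6.46 to 7.70 after the distal lesion and stays between 5.29 and 5.69 in the other groups.

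The largest falls were of muscle genes. Of 30 skeletal muscle markers 25 fell, none rose and 5 were not called, with a median of -2.45; the count was 2 when all 6 arrays of 18 h were used. Myl11, a fast myosin light chain, was at 12.33, 12.33 and 12.17 at 18 h, 6.58, 6.15 and 6.60 at 24 h, and 10.06, 6.48 and 9.58 at 28 h, 26.0-fold lower late. Ckm, muscle creatine kinase, was at 10.76, 10.86 and 10.80 at 18 h, 6.96, 6.19 and 6.59 at 24 h, and 8.73, 6.82 and 8.34 at 28 h, 11.6-fold lower. Arrays a and c of 28 h were again the intermediate ones. Acta1, skeletal actin, fell by 2.78 and Mb, myoglobin, by 3.72. Acta1 was not called when any 1 array of 18 h was left out, nor Myl11 without array b of 18 h. Against arrays eo and fo the direction turned: the change was 1.14 for Myl11, 0.61 for Ckm, 0.58 for Acta1 and 1.05 for Mb, and none of these was called. None of the 36 called falls that followed the muscle markers kept its direction there.

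Of 23 promoter windows of called muscle markers, 2 (8.7%) held the element of the muscle factor MEF2 on either strand, beside 0.345% of windows of all genes tested. They are shown because the factor's element is textbook for this list, with the element in capitals.
Cox6a2, chr1:192219717-192219806, minus strand: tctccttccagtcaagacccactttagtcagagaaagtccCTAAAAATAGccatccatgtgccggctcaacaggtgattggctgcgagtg
Ttn, chr3:82332227-82332316, minus strand: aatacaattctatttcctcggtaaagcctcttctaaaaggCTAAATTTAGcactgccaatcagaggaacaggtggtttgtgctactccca

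Of the 45 falls that did not reach r of 0.6 with the muscle markers, several are still known from striated muscle. Myl3 and Tnni1, slow-muscle isoforms, fell by 1.47 and 1.14, and Ckmt2, a mitochondrial creatine kinase, by 1.27. Myl3 was at 6.12, 8.08 and 7.09 at 18 h against 5.53 to 5.83 late, so arrays b and c made most of its fall. Against eo and fo the changes were -0.07 for Myl3, -0.13 for Tnni1 and -0.10 for Ckmt2. Pdk4, a kinase that limits glucose oxidation and responds to glucocorticoids, was at 8.67, 9.42 and 9.24 at 18 h against 7.42 to 7.85 late and fell by 1.48, but the change was 0.07 against eo and fo. Pdk4 followed the muscle markers with r of 0.44 over the other arrays.

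A few falls also held against the 18 h arrays with little muscle RNA. Pcdh18, a protocadherin, was at 9.45, 9.54 and 9.76 at 18 h, 8.61, 8.75 and 8.71 at 24 h, and 8.47, 8.34 and 8.42 at 28 h, a fall of 1.03 (SE 0.17; adjusted p 7.65e-05, limma). Arrays eo and fo were at 9.69 and 9.90, and against them the change was -1.24 (adjusted p 1.71e-05, limma). Ccl7 and Npas2 were also called there, at -1.07 and -0.70. Of all 81 falls, 34 kept their direction against eo and fo and 8 were called, while of the 109 rises 107 kept it and 73 were called. Over all 12276 genes tested, 298 were called higher and 108 lower against eo and fo. The late arrays were the same ones that had picked these rises and falls, so the counts are not an independent test. Slco1c1, a thyroid hormone transporter, fell by 0.97 (not called without array a or c of 18 h or a of 24 h), Nptx1, a neuronal pentraxin, by 0.83 and Adra2c by 0.75. Against eo and fo their changes were -0.54, -0.10 and -0.55, and none was called.

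The rises were also fitted with the muscle marker mean as a covariate. Of the 109, 29 remained called, among them Vip at 2.36, Hamp at 1.93, Arg1 at 1.46, Sprr1a at 1.89, Gfap at 1.51, Npy at 1.17 and Gal at 0.88, while Dbp at 1.46, Nr1d1 at 0.95 and Adcyap1 at 0.59 kept their direction and lost the call. The covariate ran from 9.66 to 9.78 in the 18 h arrays and from 6.69 to 8.33 in the late ones, so it separates the groups as the hour does.

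In the other lists 1 gene or none was called, counts that cannot be read apart from the 1.55% called over all genes. Of 33 interferon and antigen presentation genes Ifitm3 rose by 0.52, but it was not called when any 1 array of 18 h was left out, nor against eo and fo, where it differed by 0.47. Of 30 genes of unfolded protein and amino acid stress Slc3a2 rose by 0.39, and it was not called without array a or b of 18 h nor against eo and fo (0.24). Of 45 collagen and matrix genes Mmp19 rose by at least 1.64-fold. Of 29 cell cycle genes Kif20a fell by 0.49, but it was not called when any 1 array of 18 h or 24 h was left out, without array b or c of 28 h, or against eo and fo (-0.29). Of 19 glucocorticoid-responsive genes Pdk4 fell, and it was not called without array b of 18 h. Of 11 pericyte and smooth muscle markers Des, which muscle also makes, fell by 1.08, and was not called without array c of 18 h. None was called by limma among 22 genes of JAK-STAT and gp130 signalling (1 at unadjusted p under 0.05), 16 heat shock proteins (6), 40 genes of oxidative phosphorylation (0), 29 ribosomal proteins (0), 24 genes of lipid synthesis (1), 25 of nuclear transport (1), 27 motor proteins (2), 32 of BMP and activin signalling (2) and 13 complement and acute-phase genes (3). The medians of these 9 lists lay between -0.08 and 0.25. Among markers of other cells, none was called by limma of 21 for sensory neurons (1 at unadjusted p under 0.05), 12 for myelinating Schwann cells (1), 17 for endothelium (1), 19 for fibroblasts (1), 8 for lymphocytes (0), 5 for adipocytes (1), 4 for erythrocytes (0), 4 for spinal cord (0) and 3 for neutrophils (0).

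Each late hour was also compared with 18 h on its own. At 24 h 53 genes rose (0.432%) and 57 fell (0.464%), 110 in all (0.896%). At 28 h 71 rose (0.578%) and 52 fell (0.424%), 123 in all (1%). Between 28 h and 24 h no gene was called by limma, and 97 had an unadjusted p under 0.05. Tgm1 differed most clearly among the genes described, at 6.83, 6.71 and 6.57 at 24 h against 7.39, 7.45 and 7.43 at 28 h. Npy and Hamp were 0.69 and 0.65 higher at 28 h, without overlap. Cxcl13, Gfap and Nr1d1 differed by -0.05, -0.02 and -0.04 between the late hours.

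The same hours were compared in sham and proximal arrays, which share no array with the distal groups. In sham arrays 61 genes rose (0.497%) and 56 fell (0.456%; 0.953% called in all), and after the proximal lesion 216 rose (1.76%) and 420 fell (3.42%; 5.18% in all). Of the 109 distal rises, 1 was called in the same direction in sham and 28 after the proximal lesion, and their median change was 0.06 in sham and 0.25 after the proximal lesion beside 0.65 after the distal lesion. The counts rest on few arrays: leaving out 1 array, the sham count of 117 ranged from 5, without array a of 18 h, to 429, without array c of 18 h, and the proximal count of 636 from 70, without array b of 18 h, to 2724, without array c of 18 h. Vip changed by 0.43 in sham and by 0.62 after the proximal lesion, where it was already at 7.61 at 18 h on average against 6.36 after the distal lesion. Cxcl13 changed by -0.87 and -0.03, with a proximal mean of 8.83 at 18 h. Tnfaip6 changed by -0.43 and 0.45, with 8.31 at 18 h, and Hamp by 0.47 and 1.20. Gfap and Npy changed by 1.05 and 0.80 after the proximal lesion and were called there.

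The difference between the distal change and the sham change passed the test for 88 genes (0.717%; 40 higher, 0.326%, and 48 lower, 0.391%), of which 24 were among the 109 rises. The difference from the proximal change passed it for 203 genes (1.65%; 120 higher, 0.978%, and 83 lower, 0.676%), 16 of them among the rises. These differences rest on arrays of other technical kind. When the 72 arrays were grouped by the values of dim probe sets, the 9 distal arrays lay in 1 set, but sham and proximal arrays of 18 h lay in sets other than those of 24 and 28 h. In the sham and proximal groups, hour and set cannot be told apart. With the set as a random block, no gene passed the limma test for either difference, and 133 (sham) and 226 (proximal) had an unadjusted p under 0.05.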

How the data were processed

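Affymetrix arrays measured RNA of rat L4 and L5 dorsal root ganglia. The authors deposited log2 values made with RMA, per the submitters' processing notes; the sources used here do not say whether 1 run covered all arrays. RMA sets the arrays to a common distribution, so a large amount of foreign RNA in some arrays can shift other genes in them.

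Of 31099 probe sets, 20826 have 1 gene symbol, 436 several and 9780 none, besides 57 controls. For each of 14217 genes the probe set with the highest mean over 72 arrays was taken, and means below the 25th percentile (5.46) were left out, leaving 12276 genes. limma 3.58.1 (R 4.3.3) was fitted with 27 groups of lesion and hour, arrays with o as groups of their own, 45 residual degrees of freedom and a trended variance. The late value is the mean of the 24 h and 28 h group means. Called means a two-sided Benjamini-Hochberg adjusted p under 0.05. Where the dimmer group lay below 5.46, a fold is given as a bound against that level. The model was tested on simulated data with independent noise. Those data held no muscle RNA and no technical sets, so that test does not cover their effects. The number of arrays limits the precision.

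Genes were named by rule: the 20 largest rises and falls, the 15 largest falls with r under 0.6 with the muscle markers, 4 members of each of the 33 lists, the 10 smallest p for each difference between lesions, and a fixed set of injury genes. Members and lists were chosen with earlier results of these data known. Alternatives covered the arrays fitted, filter, normalisation, weights, muscle RNA, technical sets and each array left out. Promoters are from RefSeq (GRCr8).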

Additional observations from a re-analysis of the deposited data

Results flagged for a closer look

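The genes in this section changed from 18 h to 24 and 28 h by a different amount after the distal lesion than in sham or proximal arrays, by the limma test of the difference itself (adjusted p under 0.05). Values are log2 differences of the changes, distal minus the other group. In sham and proximal arrays hour and technical set cannot be told apart, and with the set as a random block no gene passed either test.

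Against sham, higher changes were those of Cxcl13 by 3.10, Tnfaip6 by 2.49, Vip by 1.85, Hamp by 1.46, Arg1 by 1.35, Gal by 0.88 and Adcyap1 by 0.81. Also higher were Ptprh (1.27), Per3 (1.27), Mmp16 (1.26), LOC100910424 (1.24), Slc7a6os (1.21), Gfap (1.13), Cep152 (0.93) and Tgm1 (0.84). Lower were Med9 (-0.65), Sncb (-0.67), Slc25a45 (-0.88) and Ccl7 (-1.31). The muscle-type genes Tnni1 (-1.44), Hrc (-1.45), Nrap (-1.52), Myl3 (-1.62), Cox8b (-3.09) and Mb (-3.12) were lower too, beside muscle marker means of 9.66 to 9.78 in the distal 18 h arrays and 6.69 to 8.72 in the sham ones.

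Against the proximal lesion, 16 of the same genes differed again. Cxcl13 was higher by 2.26, Vip by 1.66, Tnfaip6 by 1.61, LOC100910424 by 1.42, Cep152 by 1.36, Per3 by 1.18 and Ptprh by 0.99. Abca1, which did not pass the test against sham, was higher by 1.81. Lower were Med9 (-0.51), Slc25a45 (-0.64), Sncb (-0.94), Chchd10 (-1.08), Des (-1.40), Tnni1 (-1.55), Myl3 (-1.67), Hrc (-1.73), Nrap (-1.74), Cox8b (-3.54), Mb (-3.80) and Ckm (-3.80), where the proximal 18 h arrays had muscle marker means of 6.64 to 7.14.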

How the results depend on the processing

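Counts of called genes are given in the order distal late against 18 h (190), sham change (117), proximal change (636), difference from sham (88), difference from proximal (203), distal 24 h against 18 h (110), distal 28 h against 18 h (123) and 28 h against 24 h (0); counts left out here moved by less than 1.5 times. With only the arrays compared they were 1088, 0, 34, 284, 367, 560 and 665. The array letter as a replicate block on these arrays gave 763, 0, 0 and 209 for the first 4, and 392 and 504 for the single hours. Same-letter arrays of the distal groups deviated together with r of -0.189 to 0.246, over 0.1 in 1 of 9 pairs. These values show no clear pairing but cannot exclude one, and the labels do not say what the letters mark. A filter at the 50th percentile gave 88, 47 for the sham difference, and 39 and 42 for the single hours. Another quantile normalisation gave 304, 258, 1368, 218 and 479. Array weights gave 1496, 6234, 7498, 4984, 5911, 965, 1311 and 32. With the muscle marker mean as a covariate the counts were 42, 29 and 87 for the first comparison and the 2 differences, and 11 and 46 for the single hours. Without genes that followed the muscle markers with r of 0.4 or more, 24 h gave 67. The technical set as a fixed block gave 570, 263 and 344 for the distal comparisons, and as a random block 0 for the sham and proximal changes and both differences. With all 6 arrays of 18 h, the counts were 796 for the first comparison, 314 and 991 for the 2 differences, and 219 and 286 for the single hours. With the arrays with o in place of a to c the first was 2490, with eo and fo 406; both were chosen after seeing the data. Abca1, Actn1, Adra2c, Cep152, Entpd2, Ifitm3, Kif20a and Slc3a2 were called against all 3 arrays with o but not against eo and fo. The reverse held for Sdc1. The causes were not tested.

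Leaving out 1 array gave 98 to 185, 5 to 429, 70 to 2724, 18 to 184, 56 to 1345, 66 to 102, 60 to 109 and 0 to 0.

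Directions turned as follows. Against eo and fo the changes were 0.58 for Acta1, 0.61 for Ckm, 0.83 for Des, 1.05 for Mb, 1.14 for Myl11, 1.28 for Tnnc2, 0.074 for Pdk4, -0.060 for Klf10 and 0.13 for Sox11. Against all 3 arrays with o they were 1.11 for Acta1, 0.81 for Ckm, 0.30 for Ckmt2, 0.85 for Des, 0.91 for Mb, 1.47 for Myl11, 1.39 for Tnnc2, 0.071 for Nptx1, 0.61 for Pdk4 and 0.36 for Sox11. With all 6 arrays of 18 h Sox11 was at 0.13. With the muscle covariate the values were 0.62 for Acta1, 0.13 for Ckm, 0.037 for Des, 1.20 for Myl11 and 1.24 for Tnnc2. Leaving out 1 array moved Sox11, which was not called, between -0.17 and 0.062. Arg1, Cxcl13, Gal, Gfap, Hamp, Lce1f, Npy, Pcdh18, Per3, Ptprh, Sdcbp2, Slc7a6os, Sprr1a, Tgm1, Tnfaip6, Tslp and Vip kept their direction and their call under every alternative in which they were tested.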

Other observations

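The genes in this paragraph were picked after their values were seen, from the called rises outside the naming rule. Gch1, which makes the first step of tetrahydrobiopterin synthesis, went from a mean of 5.83 at 18 h to 6.91 at 24 and 28 h (log2 difference 1.07, adjusted p 1.97e-06, limma), and its change differed from that in sham arrays by 0.93 (adjusted p 0.0156, limma), a call that was lost with the technical set as a random block. Thbd, the thrombin-binding receptor thrombomodulin, rose by 1.10 and Hdc, which makes histamine, by 0.65. Lgi4, a secreted protein of glia that Schwann cells need for myelination, rose by 0.66 and Pdpn, the membrane protein podoplanin, by 0.58. Other single genes that rose were Irak3 by 0.68, Tnfrsf1a by 0.62, Ikbkb by 0.57, Tnip2 by 0.50 and Myd88 by 0.45. Whether these calls hold with single arrays left out or against eo and fo is not given here. Of the 29 chemokine, cytokine and NF-kappaB target genes listed, 26 were not called, with a median of 0.07.

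Muscle marker means were also high in single distal arrays at other hours, at 9.77 in array c of 8 h and 9.19 in array b of 16 h, while the other arrays of those groups lay between 6.57 and 6.84.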
